A study of Homo sapiens with 10 samples.

Results

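S5 is the state that the depositors gave to the cells growing at the highest olaparib doses. It holds 1908 cells, all of the T160 and T320 cells that the deposited metadata list, out of 18209 cells in the matrix and 8240 cells listed with any state. T160 gave 1348 of them and T320 gave 560, and a further 1297 and 774 cells of these populations carry no state. The state was not split within a dose, so S5 cannot be told apart from dose 160 and 320 µM, or from these 2 libraries. The material was Kuramochi, an established human ovarian carcinoma line described in the labels as epithelial and BRCA2-mutant, and every group compared carries that mutation. T160 and T320 were kept in 160 and 320 µM olaparib up to confluency. The 1805 cells of S4 came from the populations at 10, 20, 40 and 80 µM (T10, T20, T40 and T80; T20 gave 74 cells and T80 gave 838), and the 453 listed cells of C were untreated. All populations belong to 1 serial escalation with 1 library per dose. Libraries were made by inDrop, in which each cell meets a barcoded bead in a droplet and unique molecular identifiers (UMIs) count captured RNA molecules.

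Olaparib inhibits PARP enzymes, which sense DNA breaks, and traps them on DNA. Cells that lack BRCA2 repair such lesions poorly, and tolerance of high doses in such lines is studied as a model of resistance. Serous ovarian carcinoma is thought to derive largely from the fallopian tube, and its cells usually keep transcription factors of the Müllerian duct. Carcinoma cells can also take on mesenchymal traits, among them contractile proteins and secreted collagen matrix. Stress programmes that often appear in drug-treated cells include the NRF2 response to oxidants, the response to low oxygen, and the integrated stress response, which reprogrammes translation and amino acid supply through ATF4.

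T320 was the shallowest library compared, by UMIs per listed cell. A listed cell of T160 had a median of 3200 UMIs and one of T320 had 1934, against 5946 in C and 2170 to 3364 in the S4 libraries. The median mitochondrial share was 10.0% in T160, 7.37% in T320 and 11.9% in C. Between the S5 cells of T160 and T320, 6 barcodes were shared, 21 S5 barcodes recurred among S4 cells and 7 among C cells. Levels are given as CPM, a gene's UMIs summed over the cells of a state in a library and scaled to a common library total, over the 10334 genes that share at most 10% of their transcript-end sequence with other genes. Genes that share more were left out because genes with near copies elsewhere lose counts in T160 and T320, the S5 libraries. A kept gene that shares some sequence, such as ITGB1 or TGFB2 below, may read too low there, which was not tested. A gene was listed in a library only when about 1% of its cells or more held a UMI, so RNA below that limit may be present where 0 is listed, and no fold is printed where all libraries of a group are at 0. Where some are at 0, the fitted difference and the list medians take them as 0. At 1 UMI per cell, such a listing allows up to 8.04 CPM in the S5 cells of T160 and 14.2 in those of T320, and up to 60.5 in T10, 85.1 in T20, 16 in T40 and 12.4 in T80. Of the markers of serous carcinoma, PAX8 was at 362 CPM in T160 and 302 in T320 (599 in C, 128 to 272 in S4) and MECOM at 94.5 and 59.1. WT1 was listed at 0 in both S5 libraries (231 CPM in C), as was MUC16 in every library compared. None of 17 blood and immune markers were among the genes of the matrix, and of 8 fibroblast markers the S5 cells had THY1 (188 and 153 CPM; 68.7 in C) and, in T160, 8.36 CPM of PDGFRA, with COL1A1 and PDGFRB listed at 0.

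DDIT4 and L1CAM, both taken as markers of S5, open the description. The 250 bases before each start site in RefSeq (GRCh38.p14) follow, with capitals marking matches, on either strand, to ACGTG or GCGTG, the core that hypoxia-inducible factors recognise.
DDIT4, chr10:72273674-72273923, plus strand: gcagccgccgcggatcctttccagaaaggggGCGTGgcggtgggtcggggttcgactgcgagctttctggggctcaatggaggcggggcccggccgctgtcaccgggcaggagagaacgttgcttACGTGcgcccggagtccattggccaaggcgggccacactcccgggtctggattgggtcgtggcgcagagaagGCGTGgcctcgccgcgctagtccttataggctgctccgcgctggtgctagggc
L1CAM, chrX:153875945-153876194, minus strand: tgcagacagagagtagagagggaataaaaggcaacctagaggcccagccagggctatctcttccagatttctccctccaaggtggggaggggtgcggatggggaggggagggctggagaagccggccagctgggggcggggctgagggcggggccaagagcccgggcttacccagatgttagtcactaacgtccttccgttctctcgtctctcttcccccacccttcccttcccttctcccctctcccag
The DDIT4 window held 3 matches and the L1CAM window 0, and 43.1% of 27305 promoters of the same length hold at least 1. The same window held 0 matches for GDF15, 6 for TRIB3, 1 for LRRN2 and 0 for MECOM, so these 2 windows do not stand for stress or surface genes. For DDIT4 and L1CAM, other elements were searched as well. Neither window held TGACNNNGC, the NRF2 element (11% of promoters), TGATGNAA, bound by ATF4 (3.19%), TGACTCA, bound by AP-1 (4.16%), or CACGTG, the E-box (6.49%). A match describes letters, not binding, and no match says only that these letters are not in this window. The L1CAM start used by RefSeq lies inside the gene's span in GENCODE 29, downstream of its outermost start.

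Of the 4 genes taken as markers of S5, DDIT4, HMOX1 and L1CAM were higher than in S4 and CD70 did not pass the test. They were picked with earlier results of these data known, so their direction is no independent evidence. The same holds where they are counted in the gene lists below. DDIT4, whose product restrains mTORC1 signalling during stress, was at 294 CPM in T160 and 449 in T320. In S4 it was at 90.7, 91.6, 43.9 and 130 CPM from T10 to T80, and in C at 32.1. Both S5 libraries lay above every other listed state of the series, where the highest was 156 CPM in the S3 cells of T10. The log2 difference from S4 was 2.05 ± 0.36 (SE; edgeR adjusted p = 0.0081). Without T320 the difference was 1.72 and the adjusted p rose to 0.07. HMOX1 codes for heme oxygenase, an antioxidant enzyme under NRF2. Its levels of 560 and 481 CPM stood above the S4 values of 70.6, 78.5, 143 and 159 and the 27.5 of C, and the log2 difference from S4 was 2.11 ± 0.30 (edgeR adjusted p = 0.00297). In the cells of T160 and T320 without a state, the difference of HMOX1 from S4 was 0.50 (edgeR adjusted p = 0.323).

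L1CAM, a neuronal adhesion molecule also found on invasive carcinoma cells, was at 229 CPM in T160 and 137 in T320, against 30.2, 19.6, 23.6 and 15.4 in S4 and 49.2 in C. It rose by 3.14 ± 0.31 over S4 (edgeR adjusted p = 0.000412). The gene was not confined to S5, for the S3 cells of T20 had 228 CPM and the S2 cells of T20 had 165, both above T320. CD70, a TNF-family ligand, was listed at 0 in C, at 26.9, 91.6, 75.1 and 31.4 CPM in S4 and at 49.8 and 153 in S5. The groups overlapped, and the difference from S4 of 0.89 ± 0.50 did not pass (edgeR adjusted p = 0.305), whereas in the cells without a state it was 1.81 (edgeR adjusted p = 0.0379). DDIT4 lies on chromosome 10 (72273920 to 72276036), HMOX1 on 22 (35380361 to 35394214), L1CAM on X (153861514 to 153886174) and CD70 on 19 (6583183 to 6604103), all on GRCh38.

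**Figure D1:**
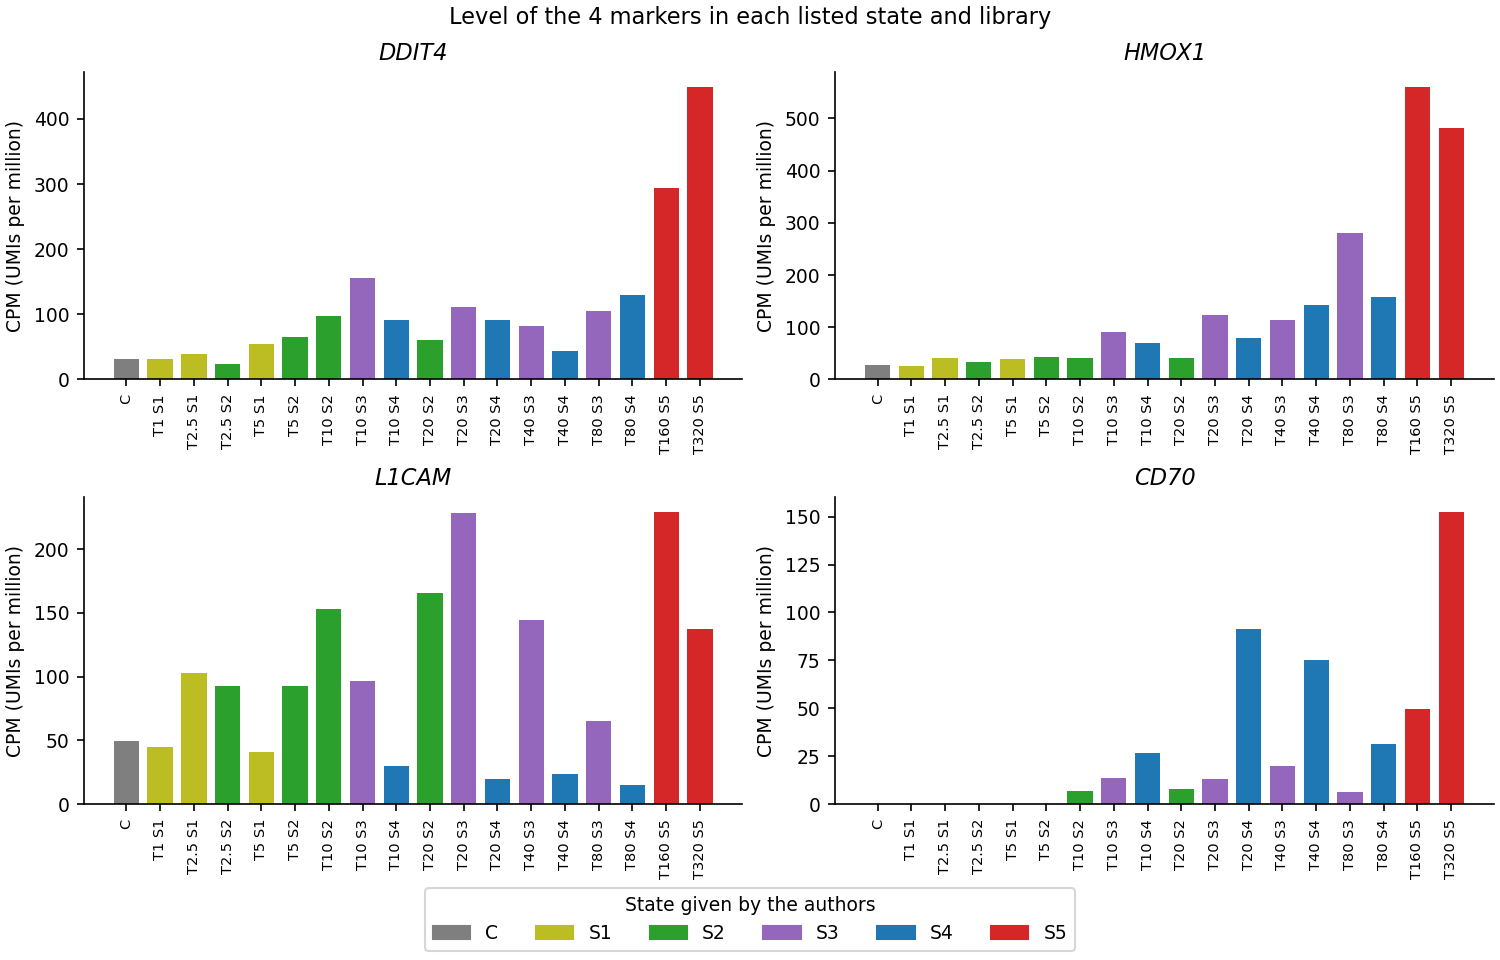
Level of each marker (y axis, CPM on a linear scale from 0) in every listed state of every library (x axis, by dose and state; bars coloured by state). DDIT4 and HMOX1 were highest in the 2 S5 libraries, L1CAM was as high in the S3 cells of T20 (228 CPM) as in T160 (229), and CD70 in T160 (49.8) lay below the S4 cells of T20 (91.6).

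At a common depth the markers were seen in a minority of S5 cells. After thinning each cell to 1000 UMIs, DDIT4 had a UMI in 16.4% of 1265 T160 cells (exact binomial 95% interval 14.4 to 18.6) and in 23.8% of 471 T320 cells (20.0 to 27.9). The S4 libraries gave 2.78% to 6.10% and C gave 2.26%. HMOX1 was seen in 20.6% (18.4 to 23.0) and 20.0% (16.4 to 23.9) of these S5 cells, against 3.45% to 8.52% in S4 and 1.25% in C. L1CAM was seen in 13.7% (11.8 to 15.7) of T160 and 6.79% (4.69 to 9.46) of T320 cells, against 0.837% to 3.45% in S4 and 3.01% in C. CD70 was seen in 3.72% and 8.92%, inside the S4 span of 1.15% to 6.94% for T160 and above it for T320, and it was listed at 0 in C, where RNA in fewer than 18 cells of the whole library would not have been listed. Without thinning, 31.8%, 39.2%, 32.3% and 8.75% of T160 cells and 34.8%, 28.7%, 16.1% and 17.3% of T320 cells had a UMI of DDIT4, HMOX1, L1CAM and CD70. All 4 markers were seen together in 4 T160 and 2 T320 cells, and none in 29% and 38.7%. Intervals cover counting error only, and thinning left out 83 T160 and 89 T320 cells.

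**Figure D2:**
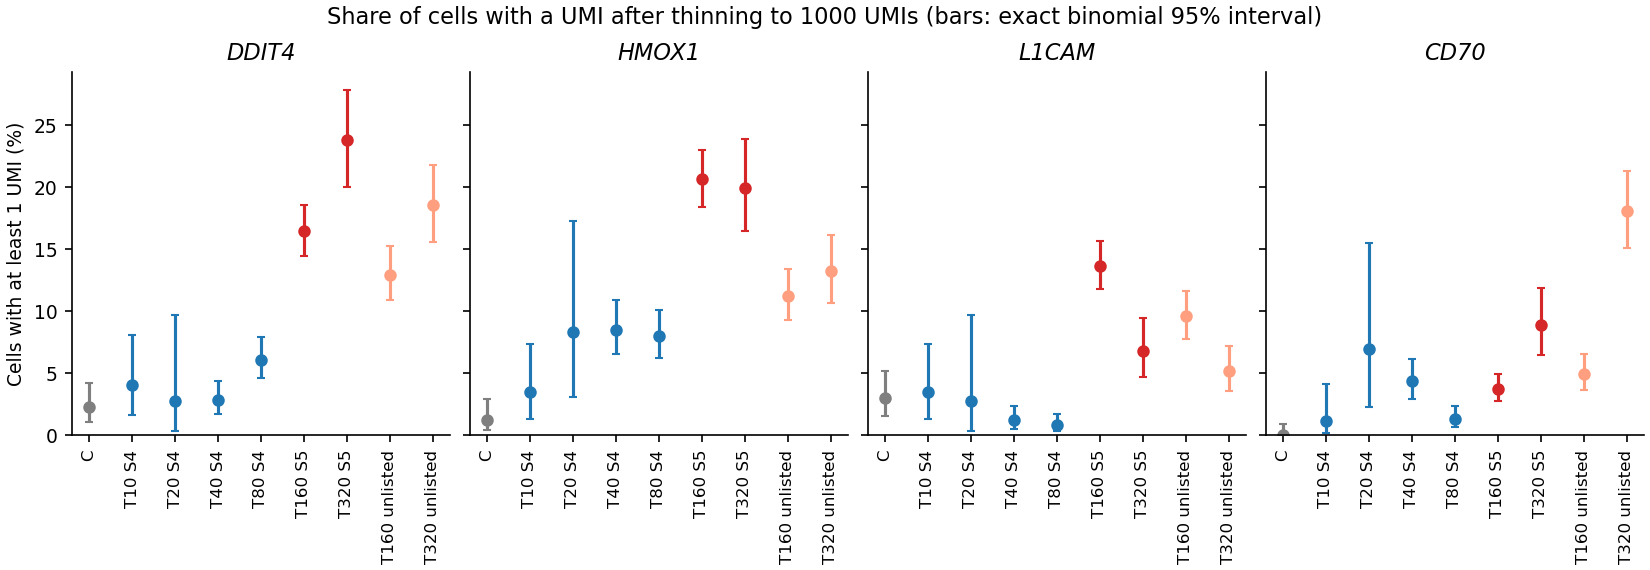
Percent of cells with at least 1 UMI of each marker after thinning to 1000 UMIs (y axis) in C, the 4 S4 libraries, the 2 S5 libraries and the unlisted cells of T160 and T320 (x axis); bars are exact binomial 95% intervals, which are no bound for CD70 in C because it was listed at 0 there. DDIT4 and HMOX1 in S5 (16.4% to 23.8%) lay above all S4 libraries, while CD70 was seen most often in unlisted T320 cells (18.1%).

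Across all genes, 207 of the 8867 tested were higher in S5 than in S4 (2.33%) and 423 were lower (4.77%), at an edgeR adjusted p under 0.05 and a difference of at least 2-fold. The 99 lower calls among them that were listed at 0 in both S5 libraries have no fold. P-values set S5 against the spread between these 6 libraries, which are doses of 1 escalation and not replicate cultures of a dose. A value in brackets after the levels is the log2 difference from S4, with its SE where given. Without T160 21 genes were called higher and 80 lower, and without T320 78 and 136. With either left out, S5 is 1 library assumed to vary like those of S4, so a lost call then does not show a smaller difference. They were 89 and 243 without T40 and 312 and 525 without T80. Scaling by library totals instead of TMM (trimmed mean of M-values) moved the median gene from -0.02 to 0.13 on the log2 scale and turned the split to 364 higher and 341 lower.

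Several of the genes furthest above S4 were also present in untreated cells. LPAR3, a receptor for lysophosphatidic acid, was at 56.6 and 61.5 CPM in T160 and T320, against at most 3.38 in S4 and 48.7 in C (log2 difference from S4 4.54 ± 0.42, edgeR adjusted p = 0.000288). LRRN2, a leucine-rich repeat membrane protein, was at 450 and 149 CPM, between 11.8 and 20.2 in S4 and at 93.9 in C (4.25 ± 0.43, edgeR adjusted p = 0.000412). FGF18, a fibroblast growth factor, was at 143 and 101 CPM, between 13.4 and 26.2 in S4 and at 182 in C (2.61). REC8, a cohesin subunit of meiosis, was at 244 and 92.2, against 16.8 to 31.2 in S4 and 230 in C (2.72). For each of these genes both S5 libraries lay above all S4 libraries, and of C, S4 and S5 it was S4 that had little RNA. Other treated states also held LRRN2, with 190 CPM in the S2 cells of T10 and 287 in those of T20, both above T320.

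A further set had the same form but lost the call without T160. The tight junction genes CLDN3 (52.7 and 21.3 CPM in S5, at most 3.55 in S4, 49.8 in C) and CGNL1 (54 and 24.8, at most 4.74, 25.8) rose by 4.42 and 3.92. LMO3, a LIM-domain transcription cofactor, had 210 and 52.0 CPM, against 6.54 to 13.6 in S4 and 68.7 in C, and rose by 3.47. CP, which codes for the copper-binding protein ceruloplasmin, had 82.0 and 44.9 CPM, against at most 7.60 in S4 and 198 in C (3.42). Without T160 the edgeR adjusted p of these genes was between 0.0556 (LMO3) and 0.259 (CLDN3). CLDN3 and CP were listed at 0 in T10 and T20, and those shallow libraries allow more RNA at such a 0 than S5 had of CLDN3. The differences themselves stayed large without T160, at 3.67 for CLDN3, 3.26 for CGNL1, 2.93 for CP and 2.10 for LMO3.

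Of 17 tested genes of the Müllerian and serous carcinoma list, 5 rose over S4 and 3 fell (2.33% and 4.77% of all genes). Those that rose were CLDN3 and the transcription factors MECOM, SOX17, EMX2 and LHX1, which act in the urogenital tract or mark its tumours. SOX17 was at 90.7 CPM in T160 and 68.6 in T320, against 6.72, 32.7, 11.8 and 5.92 in S4 (2.99 ± 0.42, edgeR adjusted p = 0.00273). In C it stood at 633, so that T160 had 0.143 of the C level (exact Poisson 95% interval 0.125 to 0.163) and T320 0.108 (0.0817 to 0.141). MECOM, a zinc finger factor often amplified in ovarian cancer, had at most 10.1 CPM in S4 and 71.5 in C (4.02 over S4), and EMX2 had 68.8 and 47.3 in S5, 6.51 to 26.9 in S4 and 151 in C (2.44). PAX8 did not pass (0.58, edgeR adjusted p = 0.258). The 3 that fell, WT1, SNCG and the protease gene KLK6, were listed at 0 in both S5 libraries. WT1 was low in S4 already, at 16.8, 0, 24.5 and 15.4 CPM from T10 to T80. A listing at 0 allows up to 8.04 CPM in T160 and 14.2 in T320. Without T40 neither WT1 nor KLK6 was called.

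Against C the same list had 0 of 17 measured members at least 2-fold higher in both S5 libraries and 10 lower (7.35% and 10.4% of the 5241 genes measured against C). Levels of SOX17 and EMX2 in S5 therefore lay between S4 and C, and those of MECOM beside C. Other treated states held these genes too. The S2 cells of T10 had 165 CPM of MECOM and 186 of EMX2, both above S5, and 46.4 of SOX17, below S5. Without T160 none of the 5 higher calls against S4 were made, and without T320 all 5 were. Without T160 the adjusted p of SOX17 was 0.052 and that of MECOM 0.0723.

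The integrated stress response list had 9 of 26 tested members higher than S4 and 0 lower, where 2.33% of all genes were higher. Its median log2 difference was 0.83, against -0.02 over all genes. Against C, 6 of 26 measured members were at least 2-fold higher in both S5 libraries and 3 lower (7.35% and 10.4% of all genes). GDF15, a secreted stress cytokine, was at 353 CPM in T160 and 141 in T320, against 33.6, 26.2, 24.5 and 52.7 in S4 and 7.44 in C (2.76 ± 0.39, edgeR adjusted p = 0.00284). T160 was 47.5-fold above C (27.7 to 89.5) and T320 18.9-fold (10.6 to 36.6). CHAC1, which degrades glutathione downstream of ATF4, was at 133 and 84.0 CPM, against 26.2 to 47.0 in S4 (1.69). PHGDH, the first enzyme of serine synthesis, was at 162 and 76.9 CPM against 22.8 to 70.6 (1.85), and TRIB3, a pseudokinase induced by ATF4, at 66.6 and 31.9 against 3.36 to 26.2 (1.75).

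The tRNA synthetase genes GARS and CARS rose by 1.05 and 1.07 over S4, VLDLR, a lipoprotein receptor, by 1.31, and the cystine transporter gene SLC7A11 by 1.14. DDIT4 was the other member called. DDIT3, the pro-apoptotic factor CHOP, had 116 and 162 CPM, above every S4 library (0, 39.3, 36.3 and 66.9), with 1.73 ± 0.51 and an edgeR adjusted p of 0.0585. ATF3 was at 65.0 and 72.1 CPM in S5 and at 3.36, 0, 236 and 14.8 in S4. Its difference of -0.24 turned to 2.66 without T40, whose S4 cells had the 236 CPM. SESN2, a stress-induced sestrin, was at 82.0 and 65.0 CPM, above the 13.1 to 43.8 of S4, and did not pass (1.09, edgeR adjusted p = 0.0552). Without T160, 2 members of the list were called, and without T320 4, while GDF15 kept its call without either.

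Hypoxia targets had 6 of 22 tested members higher than S4 and 1 lower, where 2.33% and 4.77% of all genes were (median 0.84). The marker DDIT4, picked with earlier results known, was among the 6. KDM3A, a histone demethylase induced at low oxygen, was at 163 and 184 CPM, against 57.1, 65.4, 94.5 and 71.7 in S4 and 36.6 in C (1.21 ± 0.25, edgeR adjusted p = 0.0158). MXI1, a transcriptional repressor, was at 190 and 194 CPM against 43.7 to 114 (1.28). Both were also at least 2-fold above C in each S5 library, KDM3A by 4.45-fold (3.43 to 5.87) and 5.04-fold (3.74 to 6.85). The glucose transporter gene SLC2A1 rose over S4 by 1.58, from 26.9 to 47.3 CPM to 83.0 and 154, and was below the 436 CPM of C. NDRG1, a stress-induced differentiation gene, was at 203 and 524 CPM, and its T160 value lay inside the S4 span of 94.1 to 209. PFKFB4, a regulator of glycolysis, was listed at 0 in S4 and C and at 17.4 and 21.3 CPM in S5, which lies within what that listing allows for T10 and T20.

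VEGFA, the vascular growth factor, did not pass. It was at 130 and 208 CPM in S5 and at 94.1, 58.9, 176 and 105 in S4 (0.52, edgeR adjusted p = 0.39). The 1 hypoxia target that fell was P4HA1, a collagen prolyl hydroxylase (-1.14; 44.4 and 55.6 CPM against 86.5 to 131). Without T160, 3 hypoxia targets were called higher, and without T320 0 were. In the unlisted cells of the same libraries 2 were called.

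NRF2 targets had 5 of 22 tested members higher than S4 and 1 lower (2.33% and 4.77% of all genes), with a median of 0.39. Beside HMOX1 these were NQO1, a quinone reductase (524 and 622 CPM in S5, 148 to 299 in S4, 322 in C; 1.2), SLC7A11, BLVRB, which reduces biliverdin (170 and 122 against 43.7 to 118; 1.22), and AKR1B1, an aldose reductase. For AKR1B1, 19.9% of the longest transcript matched other genes, which makes its value less certain. UGDH, which makes UDP-glucuronate, fell by 1.51. HMOX1 alone of the 5 was called without T160, and 2 were called without T320. Against C, 1 of 20 measured members was at least 2-fold higher in both S5 libraries and 1 was lower. Over all genes measured 7.35% and 10.4% were, so these counts do not stand out.

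Genes of cell contraction and the mesenchyme fell in part, some by over 3 on the log2 scale. Of 24 tested mesenchymal genes 7 fell and 0 rose (4.77% and 2.33% of all genes). Their median was -1.07, or -0.78 when the 2 members listed at 0 in S5 were set to the most that listing allows. TAGLN, an actin-binding protein of smooth muscle, was at 244 CPM in T160 and 270 in T320, against 3374, 3684, 4290 and 2344 in S4 and 717 in C (-3.74 ± 0.34, edgeR adjusted p = 0.000288). ACTA2, smooth muscle actin, was at 286 and 241 CPM against 2247 to 2519 in S4 and 117 in C (-3.18 ± 0.27, edgeR adjusted p = 0.000288). CALD1, caldesmon, had 400 and 441 CPM against 1733 to 5847 in S4 (-2.88), and TPM1, a tropomyosin, 276 and 380 against 515 to 1368 (-1.44). SNAI2, a repressor of epithelial genes, was at 7.40 CPM in T160 and 0 in T320 against 52.7 to 208 in S4, and ZEB2, another such repressor, was listed at 0 in both against 17.2 to 40.3. FN1 was the seventh.

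Other mesenchymal genes did not pass the test. VIM, the intermediate filament vimentin, was at 2203 and 2888 CPM in S5 and 2467 to 4121 in S4 (-0.34 ± 0.27, edgeR adjusted p = 0.495). It stood 2.09-fold (1.98 to 2.20) and 2.73-fold (2.57 to 2.91) above C. The receptor tyrosine kinase gene AXL was at 268 and 213 CPM against 161 to 399 in S4 (-0.04, edgeR adjusted p = 0.966) and 65.2 in C. The calls for TAGLN, ACTA2, SNAI2 and ZEB2 were also made without T160 and without T320. CALD1 was called in neither case, with adjusted p of 0.11 and 0.07, and neither was TPM1.

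The matrix list had 10 of 23 tested members lower than S4 and 0 higher, where 4.77% of all genes were lower (median -1.87, or -1.47 with members listed at 0 set to the most that listing allows). FN1, fibronectin, was at 943 and 1230 CPM, against 9379, 8147, 7791 and 7172 in S4 and 647 in C (-2.90 ± 0.28, edgeR adjusted p = 0.000362). COL12A1, a fibril-associated collagen, was at 29.6 and 52.0 against 242 to 452 (-3.12), and COL3A1, a fibrillar collagen, at 18 and 0 against 2903, 1296, 730 and 317. HAS2, which makes hyaluronan, was at 13.2 and 26.0 against 45.8 to 234 (-3.00). TGFBI, a secreted matrix protein, fell below S4 (67.8 and 123 CPM against 147 to 1344) but was listed at 0 in C. BGN, the proteoglycan biglycan, was listed at 0 in S5, and COL5A2, COL6A3, COL8A1 and FBN2 also fell. Against C the direction was not the same, with 6 of 17 measured matrix genes higher in both S5 libraries and 2 lower (7.35% and 10.4% of all genes).

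The S4 cells of T10 stood apart in these genes. Their summed level of the fibroblast markers was 2893 CPM, of which COL1A1 made up 2634, against 123 to 687 in the other S4 libraries, 80.1 in C and 196.1 and 152.5 in S5. Of the 8 markers 4 were in the matrix, with DCN, LUM, FAP and COL1A2 outside it, and their part in the result was not tested. Without T10, 8 matrix genes were called lower, and without T160 3 and without T320 5, with FN1, COL12A1 and COL3A1 called each time. SERPINH1, the collagen chaperone, had 232 and 181 CPM against 541 to 2668 in S4 and 1899 in C (-2.77, edgeR adjusted p = 0.0167; 0.128 without T160 and 0.124 without T320).

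TGFB2, a ligand of the TGF-beta family, which induces matrix in many cells, fell as well. It was at 14.8 and 8.28 CPM against 262, 209, 179 and 107 in S4 and 89.9 in C (-3.85 ± 0.43, edgeR adjusted p = 0.000888), and it was called without either S5 library. Of its longest transcript, outside the part used to choose genes, 26.7% matched other genes. Of 25 tested TGF-beta targets and components 4 fell and 1 rose against S4 (4.77% and 2.33% of all genes). Against C, by contrast, 8 of 19 measured were higher in both S5 libraries and 1 lower (7.35% and 10.4% of all genes). LTBP1, which stores latent TGF-beta in the matrix, was at 22.8 and 14.2 CPM against 97.7 to 339 (-3.04), and TIMP1, an inhibitor of metalloproteinases, at 356 and 361 against 996 to 1327 in S4 and 350 in C (-1.65). SMAD6, an inhibitory SMAD, rose by 1.47, with 59.8 and 70.9 CPM against 10.1 to 45.8. Without T160 LTBP1 and TIMP1 had an adjusted p of 0.0807.

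Of 16 tested basement membrane genes, 2 rose and 0 fell (2.33% and 4.77% of all genes). COL18A1, the collagen that yields endostatin, was at 181 and 192 CPM, against 43.7, 78.5, 48.9 and 49.1 in S4 and 35.5 in C (1.85 ± 0.25, edgeR adjusted p = 0.00237), and it was called without either S5 library. FBLN2, fibulin, rose by 1.47. LAMA4, a laminin chain, was at 198 and 281 CPM against 208 to 340 in S4 (-0.26, edgeR adjusted p = 0.609) and 5.72 in C.

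Of 33 tested adhesion molecules 2 rose, L1CAM and LRRN2, and 8 fell (2.33% and 4.77% of all genes). ITGB1, an integrin chain that binds fibronectin and collagen, was at 163 and 240 CPM against 654 to 1368 in S4 and 536 in C (-2.26 ± 0.35, edgeR adjusted p = 0.00406), with 15.9% of its longest transcript shared with other genes. ALCAM, an immunoglobulin-family adhesion molecule, was at 45.7 and 60.3 CPM against 148 to 183 (-1.65), CADM1 at 372 and 182 against 507 to 1060 (-1.47) and the integrin chain ITGAV at 216 and 197 against 282 to 672 (-1.24). CD44, the hyaluronan receptor, was at 213 and 429 CPM, inside the S4 span of 80.6 to 670 (-0.09, edgeR adjusted p = 0.952), and above the 34.9 of C. L1CAM and LRRN2 were called without T160 and without T320, whereas of the 8 lower calls 1 and 3 were made. Of 14 tested epithelial genes 2 rose and 1 fell against S4 (median -0.16), where 2.33% and 4.77% of all genes did. Against C 0 of 9 measured were higher and 6 lower (7.35% and 10.4% of all genes). Of the 2 above S4, the claudin CLDN4 rose by 1.59, with 114 and 88.7 CPM against 0 to 43.9 in S4 and 113 in C.

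Of the genes furthest below S4, several were listed at 0 in both S5 libraries. VCAM1, an adhesion molecule for leukocytes, was at 796, 222, 427 and 134 CPM in S4 and listed at 0 in T160, T320 and C (edgeR adjusted p = 0.00127). EDNRA, an endothelin receptor, had 43.8 to 111 CPM in S4 and was likewise at 0 in T160, T320 and C. ISLR, a secreted mesenchymal protein, A2M, a protease inhibitor, CLIC5, an ezrin-associated channel protein, LYPD1, a surface protein, and LMNTD1, which carries a lamin tail domain, were in all 4 S4 libraries and at 0 in both S5 libraries. RGS4 stayed listed. This brake on G-protein signalling was at 766, 726, 771 and 491 CPM in S4 and at 59.5 and 35.5 in S5 (-3.81 ± 0.35, edgeR adjusted p = 0.0003). The protocadherin PCDH18 fell from 216 to 308 CPM to 29.6 and 26.0 (-3.24), and VAMP8, a vesicle fusion protein, from 93.0 to 112 to 9.32 and 7.09 (-3.57).

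Others of the lowest genes lost the call when 1 library was left out. IFI27 and ACTG2, smooth muscle actin of the gut, were listed at 0 in S5 and had adjusted p of 0.202 without T160 and 0.0852 and 0.0749 without T320. RGS5, a pericyte gene, was at 638 and 497 CPM in T10 and T20, at 20.3 and 78.8 in T40 and T80 and at 8.68 and 7.09 in S5. Its difference of -5.08 was -5.30 without T160 and -5.02 without T320, while the adjusted p of 0.0363 rose to 0.231 and 0.167. C12orf54, a gene of little known function, was at 0 in S5 and had an adjusted p of 0.0817 without T160, as ADAM12, a metalloprotease gene, had 0.0797. CRISPLD1, a secreted protein gene, fell by 3.65 and was called without either S5 library.

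**Figure D3:**
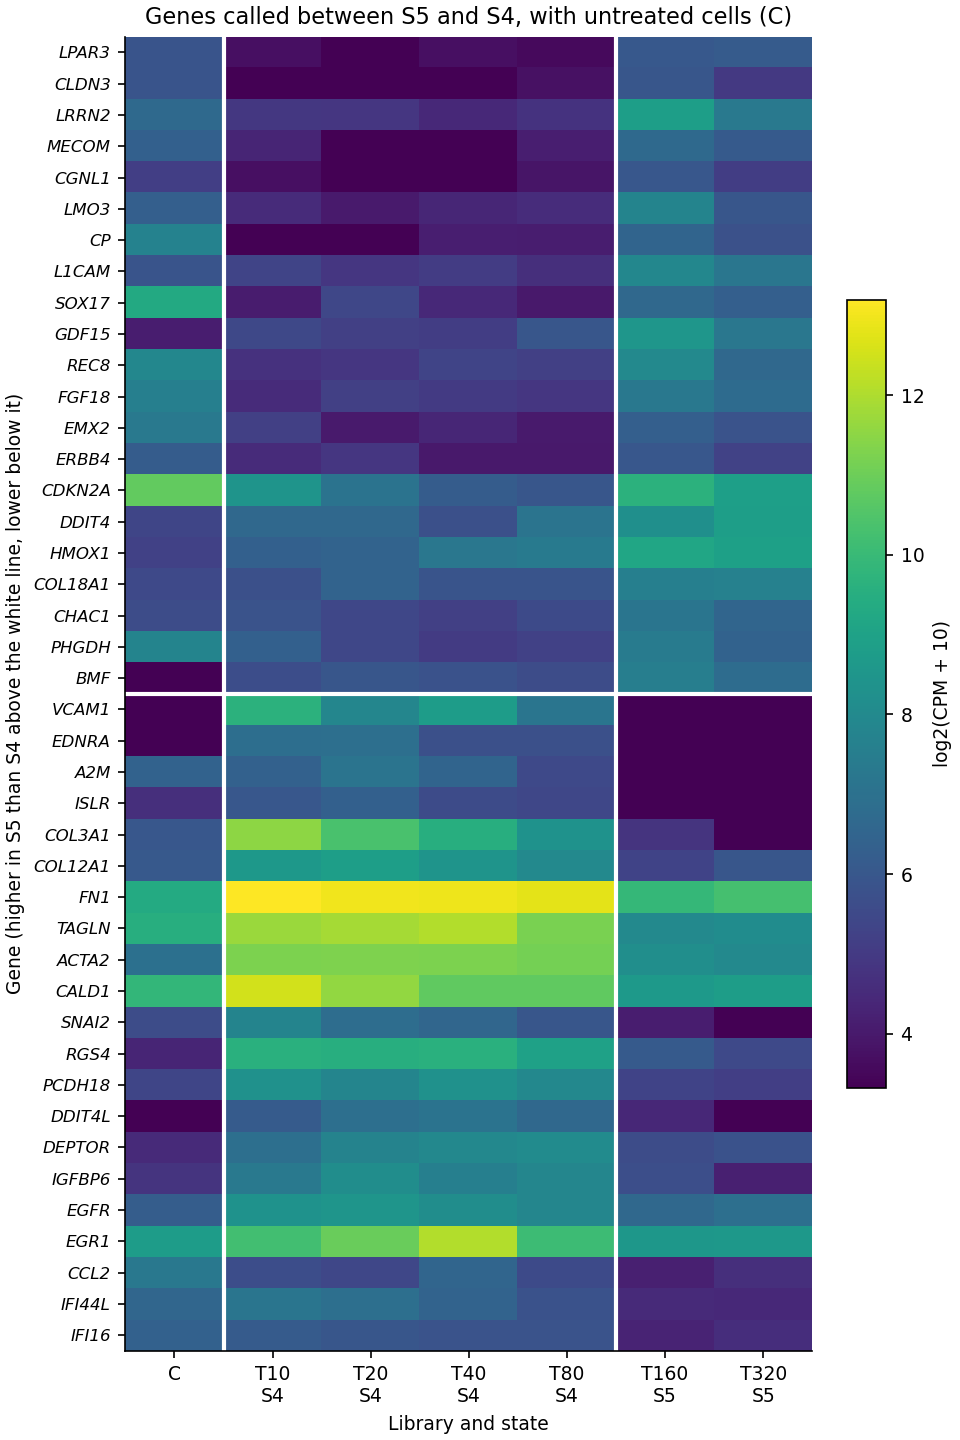
Level as log2(CPM + 10) (colour) of named genes (rows) in C, the 4 S4 libraries and the 2 S5 libraries (columns). Above the white line S5 exceeded S4, often with C also high, as for LPAR3 (48.7 CPM in C), and below it S5 was lower, as for FN1 (943 and 1230 CPM against at least 7172 in S4).

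Inflammatory genes fell in part. Of 15 tested NF-kB targets and cytokines 7 fell and 0 rose (4.77% and 2.33% of all genes). Listed at 0 in both S5 libraries were 5 of the 7, among them CXCL8, a neutrophil chemokine, and TNFAIP3 and BIRC3, feedback inhibitors of the pathway. Their S4 levels were low, at 5.33 to 73.4 CPM where listed, and partly under what a listing at 0 allows in S5. The list's median of -1.44 became -0.70 with genes at 0 set to the most that listing allows. CCL2, a monocyte chemokine, had 8.36 and 15.4 CPM in S5, 32.7 to 83.5 in S4 and 147 in C (-2.26 ± 0.47, edgeR adjusted p = 0.0166). Without T160, 0 of the list were called, and without T320 1 was.

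Of 26 tested interferon-stimulated genes 7 fell and 0 rose (4.77% and 2.33% of all genes). Their median was -1.11, or -0.90 with genes at 0 so set. IFI16, a DNA sensor, was at 9.97 and 14.2 CPM against 60.5, 52.3, 47.3 and 47.4 in S4 and 73.8 in C (-2.13 ± 0.32, edgeR adjusted p = 0.00361), and IFI44L at 12.9 and 11.8 against 46.2 to 134 and 85.9 (-2.74). MX1, an antiviral GTPase, and PARP9, an interferon-induced PARP family member, fell by 2.68 and 1.80, and OAS1, an RNA sensor, was listed at 0 in S5. Against C, 13 of 16 measured members were lower in both S5 libraries and 0 higher (10.4% and 7.35% of all genes). Without T160 the differences of IFI16 and IFI44L from S4 were -1.82 and -2.84, and without T320 they were -2.33 and -2.72.

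Of 23 tested AP-1 and immediate early genes 4 fell and 0 rose (4.77% and 2.33% of all genes). EGR1, an early growth response factor, was at 360 and 370 CPM against 1169, 1950, 4204 and 1085 in S4 (-2.53 ± 0.54, edgeR adjusted p = 0.0192), and FOS, an AP-1 subunit, at 251 and 190 against 481 to 1737 (-2.01). In C they stood at 429 and 227 CPM. IER2 and FOSL2 also fell. None of the 4 were called without T160, or without T320.

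**Figure D4:**
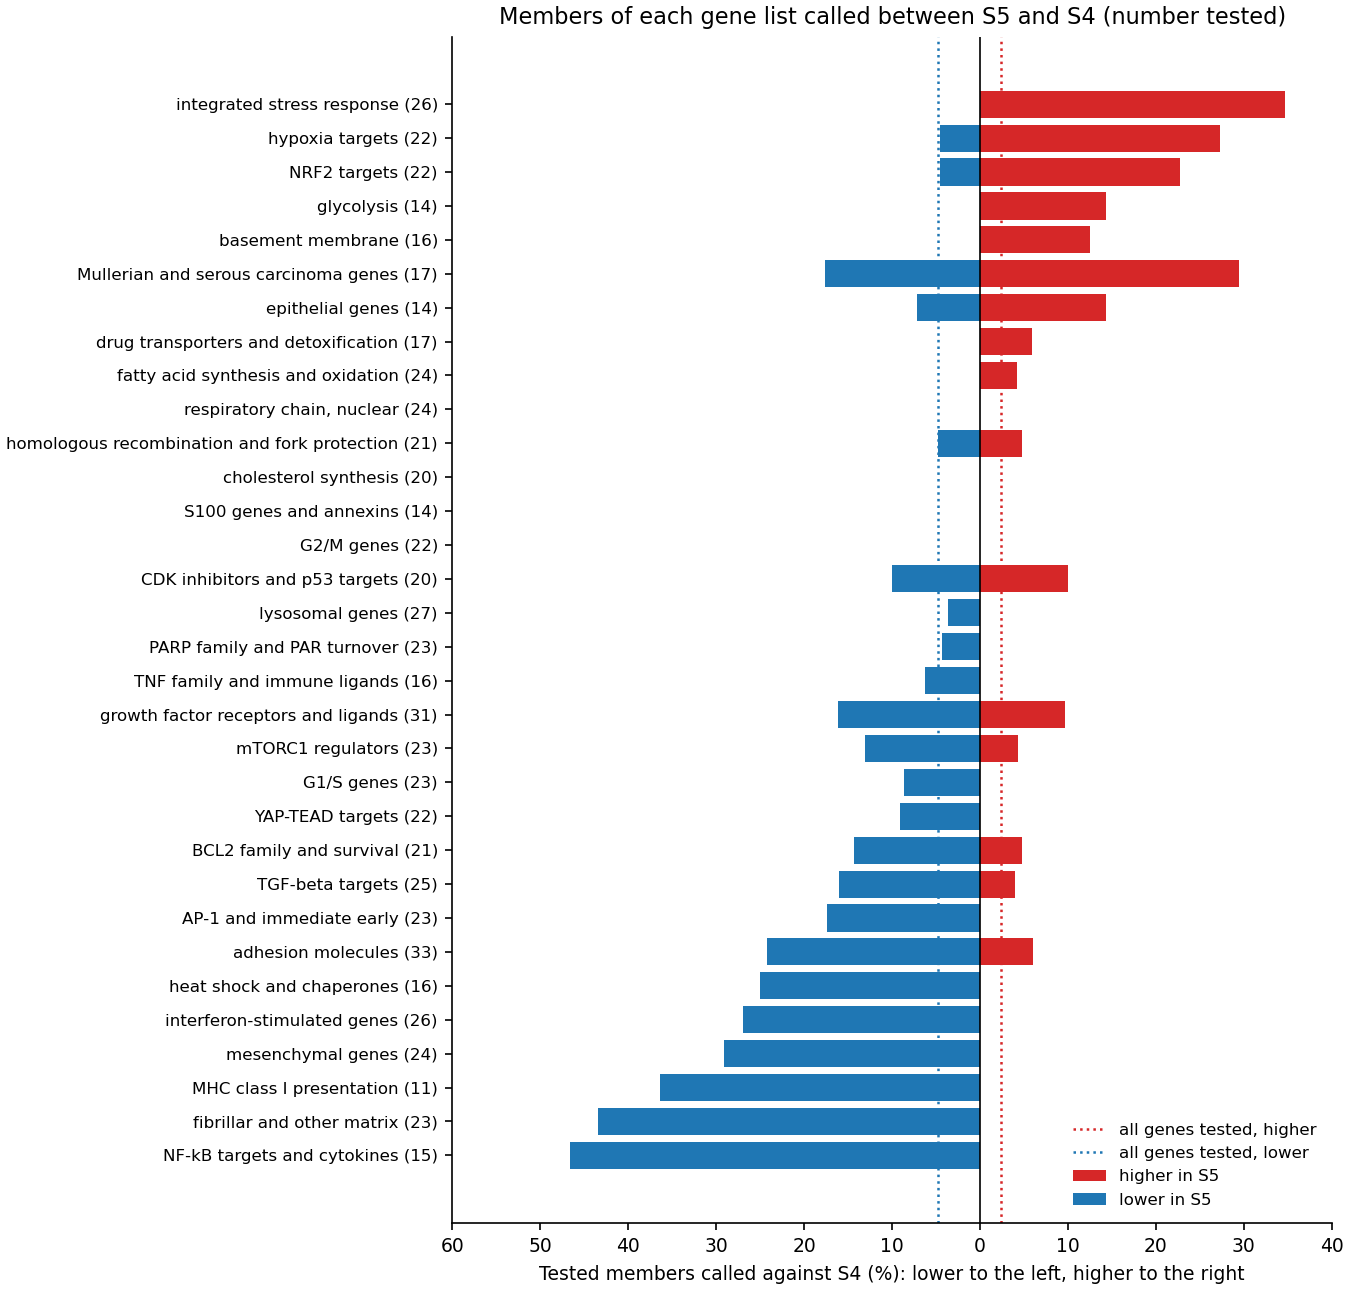
Percent of the tested members of each gene list called higher (red, to the right) or lower (blue, to the left) in S5 than in S4, with the number tested in brackets; dotted lines are the same over all 8867 genes tested (2.33% and 4.77%). The integrated stress response (9 of 26), hypoxia and NRF2 lists lie to the right. Matrix, cytokine and interferon lists lie to the left, as do heat shock genes and chaperones (0 higher and 4 lower of 16).

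Growth factor receptors and binding proteins moved in both directions. EGFR, the epidermal growth factor receptor, was at 90.7 and 111 CPM against 319, 340, 280 and 218 in S4 and 65.2 in C (-1.50 ± 0.27, edgeR adjusted p = 0.0088). ERBB4, a receptor of the same family that binds neuregulins, was at 53.4 and 28.4 against 5.91 to 19.6 in S4 and 62.4 in C (2.41 ± 0.46, edgeR adjusted p = 0.0117). IGFBP6, a binding protein of insulin-like growth factors, was at 41.5 and 8.28 CPM against 151 to 275 (-2.86), and IGFBP5 at 259 and 151 against 399 to 1105 (-1.64). IGFBP2, of the same family, was at 836 and 647 CPM against 202 to 386 in S4 and 1140 in C (1.32). Of the 31 tested genes of this list 3 rose and 5 fell (2.33% and 4.77% of all genes). Without T160 EGFR and ERBB4 had adjusted p of 0.138 and 0.29, and without T320 0.0556 and 0.0211.

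Among 23 tested regulators of mTORC1, DDIT4 rose and 3 fell (4 rose with library totals), where 2.33% and 4.77% of all genes did. DDIT4L, its relative, went the other way, at 11.6 CPM in T160 and 0 in T320 against 60.5, 111, 127 and 91.2 in S4 (-3.61 ± 0.56, edgeR adjusted p = 0.0042). DEPTOR, an inhibitor within the complex, was at 39.2 and 46.1 against 111 to 260 in S4 (-2.30 ± 0.35, edgeR adjusted p = 0.00387). DDIT4L was called without either S5 library, and DEPTOR had an adjusted p of 0.0807 without T160.

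Cell cycle inhibitors were mixed. CDKN2A, which codes for p16 and ARF, was at 807 and 472 CPM, against 333, 124, 63.3 and 52.7 in S4 and 1825 in C (2.28 ± 0.58, edgeR adjusted p = 0.0379). Without T160 its difference was 1.83, and it was not called without T20 or without T40. Other treated states also held CDKN2A, with 994 CPM in the S2 cells of T10 and 733 in the S3 cells of T80. CDKN2C, the p18 inhibitor, was at 16.7 and 22.5 CPM against 26.2 to 79.9 in S4 (-1.60), and PLK2, a p53-induced kinase, at 230 and 380 against 720 to 1217 (-1.63). CDKN1A, the p21 inhibitor, was at 168 and 141 CPM against 77.3 to 232 in S4 (0.09, edgeR adjusted p = 0.919), above the 33.8 of C. CCND1, the cyclin of G1 entry, was at 168 and 87.5 CPM against 43.0 to 80.6 (1.11, edgeR adjusted p = 0.0552) and 235 in C. The metadata that list these cells are named for G1.

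In the listed S5 cells, genes of the drug's own pathway were called about as often as all genes (2.33% higher, 4.77% lower). Of 23 tested members of the PARP family and PAR turnover 1 fell, PARP9. PARP1, the main target of olaparib, was at 160 and 186 CPM in S5, 242, 150, 197 and 286 in S4 (-0.38 ± 0.27, edgeR adjusted p = 0.432) and 548 in C. The fold from C was 0.291 in T160 (0.261 to 0.325) and 0.339 in T320 (0.284 to 0.401). Of 21 tested genes of homologous recombination and fork protection, HLTF, a fork-remodelling helicase, rose and RBBP8, an end-resection factor, fell. The difference of RBBP8 (-1.07, edgeR adjusted p = 0.0472) was not called with library totals or with the DESeq2 Wald test. In the unlisted cells it was -0.33. With the unlisted cells of T160 and T320 in place of S5, 10 genes of the recombination and fork list were called higher and 0 lower. Over all genes that comparison called 531 of 9085 higher and 628 lower. HLTF was at 294 and 305 CPM against 87.4 to 179 in S4 and 88.7 in C (1.28, edgeR adjusted p = 0.0234), with an adjusted p of 0.147 without T160.

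The apoptosis genes BMF and BAX moved apart. BMF, a pro-death BCL2 relative, was at 176 and 102 CPM against 40.3, 52.3, 46.4 and 39.1 in S4 and 0 in C (1.70 ± 0.27, edgeR adjusted p = 0.00478). BAX, an effector of apoptosis, was at 40.8 and 56.8 against 101 to 137 (-1.23, edgeR adjusted p = 0.0187). BCL2L11, which codes for BIM, was at 149 and 122 CPM, above the S4 span of 63.8 to 102, and did not pass (0.57, edgeR adjusted p = 0.184). Without T160 the differences of BMF and BAX were 1.23 and -0.99. In the unlisted cells of T160 and T320 they were 0.21 (edgeR adjusted p = 0.776) and -0.68 (edgeR adjusted p = 0.201). Neither gene was called with all cells of these libraries.

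Against untreated cells S5 had 385 genes at least 2-fold higher in both libraries and 544 lower, of 5241 measured (511 and 433 with library totals). With 1 library of C there is no test, and folds carry exact Poisson 95% intervals. PDE1C, a phosphodiesterase, SAMD11, PRKCB, a protein kinase C, and PRNP, the prion protein, were listed at 0 in C and at 68.8 to 223 CPM in S5, and none passed against S4. They were therefore shared with S4, which had 47.0 to 360 CPM of them. Of secreted and epithelial genes high in C, SPP1, osteopontin, was at 1419 CPM, against 126 in T160 (0.0888 of C, 0.0797 to 0.0989) and 56.8 in T320, and SPON1, a matrix adhesion protein, was at 0.0993 of C (0.0852 to 0.115) and 0.0247 (0.0135 to 0.0416). S100A16, a calcium-binding protein, was at 0.0727 and 0.0704 of C. DSP, the desmosomal protein desmoplakin, was at 29.9 and 54.4 CPM against 461 in C.

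Within S5 the libraries differed at few genes. Of 4623 measured, 34 were at least 2-fold higher in T320 than in T160 (0.735%) and 71 lower (1.54%), with no test since each dose has 1 library. SNAI1, an inducer of mesenchymal change, was at 27 CPM in T160 and 119 in T320 (4.42-fold, exact Poisson 95% interval 3.28 to 5.98). The basement membrane collagen COL4A1 went from 39.5 to 137 CPM (3.47-fold, 2.67 to 4.51), the surface protein TM4SF1 was 2.98-fold higher (2.45 to 3.63) and CD70 3.06-fold (2.40 to 3.89). APOE, a lipid carrier, was lower in T320, at 122 against 659 CPM (0.185, 0.150 to 0.225), as were MDK, the growth factor midkine (0.234, 0.194 to 0.280), COL9A3, a cartilage collagen (0.115, 0.0457 to 0.241), and PKDCC, a secreted kinase (0.236, 0.161 to 0.336). Of 11 measured Müllerian and serous genes 6 were lower in T320 and 0 higher. LRRN2, GDF15, LMO3 and CLDN3, all called above S4, were also at least 2-fold lower in T320 than in T160.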

How the data were processed

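The deposited matrix holds UMI counts per gene and cell, made by the authors without normalization. The deposited metadata give a state and a mitochondrial fraction for each listed cell. The submitters' processing notes name hg38, GRCh38 and Seurat 2.3.2. The aligner, counter, annotation, cell filter and assignment of states were not given in the sources used here. Cells were matched by name, those of T40 by barcode, and all 8240 UMI totals agreed exactly. All listed cells were kept, and no doublet caller was run.

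Genes whose last 500 transcript bases shared over 10% of 31-mers with other genes of GENCODE 29 were left out (1868 of 12202 matched), and 171 genes without a match were left out too. The reason was the loss of counts in T160 and T320 for genes with near copies. With these genes kept in, 746 genes rather than 423 were lower in S5 than in S4. Counts were summed by state and library (152818 to 2901751 UMIs in the genes kept), scaled by TMM over 7 sums, and tested, S5 (2 libraries) against S4 (4 libraries), with the edgeR 4.0.16 quasi-likelihood F-test after filterByExpr. The Benjamini-Hochberg adjustment ran over 8867 genes. A call needed an adjusted p under 0.05 and a 2-fold difference. On simulated counts over 8472 genes the test called 18 of 98 genes changed 2-fold, 87 of 100 changed 4-fold and 8 of 8274 unchanged. Differences from C and between T320 and T160 are of log2(CPM + 10), for genes with at least 100 UMIs and 50 CPM. DESeq2 1.42.0, other scalings, filters and cell sets, and leaving out each library were the alternatives.

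Members, gene lists and rules were chosen with earlier results of these data known. Named genes were the 4 markers, the 12 highest and lowest calls against S4 outside the S4 range, the same against C, 8 in each direction between T320 and T160, and list members. Since many of the 12 lowest were listed at 0, the next lowest with UMIs were added after the values were seen, as were some genes named beside a group (CCL2, COL18A1, LAMA4, TGFB2 and ITGB1 among them). Some genes selected by these rules are not reported here. Summed levels of the endothelial markers were 133 and 102 CPM in T160 and T320 (269 in C, 80.2 to 134 in S4; 5 of 9 in the matrix) and of the mesothelial markers 7.72 and 8.28 CPM (396 in C, 26.2 to 48.1 in S4; 5 of 8).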

Additional observations from a re-analysis of the deposited data

Results flagged for a closer look

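Cells of T160 and T320 that carry no state in the metadata also held marker RNA, in most cases above the level of the listed untreated cells. The 1392 unlisted cells of C were not counted here, so unlisted cells are set against listed ones. The differences of unlisted cells from S4 given above likewise used listed S4 cells. Whether selection for the list matters to these values was not tested. After thinning to 1000 UMIs, DDIT4 had a UMI in 12.9% of unlisted T160 cells and 18.5% of unlisted T320 cells (2.26% in C). HMOX1 was seen in 11.3% and 13.2% (1.25% in C), and L1CAM in 9.58% of unlisted T160 cells (3.01% in C). In unlisted T320 cells L1CAM was seen in 5.16% (exact binomial 95% interval 3.56 to 7.21), which overlaps the interval of C (1.56 to 5.19). CD70 was seen in 4.95% of unlisted T160 and 18.1% of unlisted T320 cells, beside 8.92% of listed T320 cells.

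In 6 genes 1 of the 4 S4 libraries lay far from the rest by its gap over the group's range. Chance meets that criterion in about 1 of 20 groups, and the 6 were not set against the number of genes looked at. CLDN3 was at 3.55 CPM in the S4 cells of T80 and 0 in the others, where a listing at 0 allows up to 60.5 CPM in T10 and 85.1 in T20. C12orf54 was at 224 CPM in T80 and RGS4 at 491, SLC7A11 was at 65.8 in T40, CARS at 75.8 in T80 and COL9A3 at 276 in T10.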

How the results depend on the processing

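With library totals in place of TMM, 364 genes were higher in S5 than in S4. With genes that share sequence kept in, 746 were lower. With all cells of T160 and T320, 389 were higher, and with their unlisted cells alone, a set added after seeing the data, 531 were. Leaving out 1 library at a time gave 21 to 312 genes higher and 80 to 525 lower, the fewest without T160 and the most without T80. DESeq2 size factors, no filter on low counts, removing every gene that shares any sequence, a limit on the longest transcript (also added after seeing the data) and the DESeq2 Wald test kept both counts within 1.5 times. Against C, a minimum of 200 CPM gave 112 genes higher and 233 lower, and leaving out T160 or T320 gave 468 to 565 higher and 662 to 782 lower. Between T320 and T160, a pseudocount of 1 CPM gave 54 genes higher, a minimum of 20 CPM gave 120 lower, a minimum of 200 CPM gave 11 higher and 21 lower, and keeping genes that share sequence gave 58 higher and 46 lower. The cause of these shifts was not tested.

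Shares of cells with a UMI moved with depth. Thinned to 700 UMIs, T160 had DDIT4 in 12.3% of cells, HMOX1 in 15.8%, L1CAM in 10.8% and CD70 in 1.86%, and T320 had DDIT4 in 16.6% and HMOX1 in 14.5%. Without thinning, T160 had 31.8%, 39.2%, 32.3% and 8.75%, and T320 had 34.8%, 28.7%, 16.1% and 17.3% in the same order.

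Of the 109 named genes called against S4, 28 kept the call under every alternative. With 1 S5 library left out, the other is assumed to vary like those of S4. Without T160 76 lost it, without T320 53, without T40 39, without T20 31, without T10 21 and without T80 5. Library totals cost 8, the unlisted cells 22, all cells 14 and the DESeq2 Wald test 11. ATF3, at -0.24, was between -0.68 (without T80) and 2.66 (without T40) with 1 library left out, and SAMD11, at 0.47, was at -1.17 in the unlisted cells. No paired analysis was possible because each dose is 1 library, numbered 1, so that no groups share more than that 1 number and nothing pairs libraries. A gene in under about 1% of a library's cells was listed at 0, which limits what can be said of low genes in T160 and T320, and a 2-fold change was seldom called on simulated counts.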
